A study of Mus musculus with 12 samples.

Results

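Clock output factors carry the time signal of the circadian clock to the genes that it controls. The 9 genes described here were chosen by name, as the row of each in a table of 53465 genes: the transcription factor genes Dbp, Tef, Hlf, Nfil3, Bhlhe40, Bhlhe41 and Rora, the repressor gene Ciart and the deubiquitinase gene Usp2. They were chosen with earlier results of these data known, so their counts beside the shares over all genes are descriptions. RNA-seq counts were available from livers of C57BL/6N mice, a common inbred laboratory strain, in 3 age groups, 3 months (called young), 12 months (middle-aged) and 18 months (aged), each of 4 livers, with 1 animal per liver in the labels, although the deposited design text speaks of 3 replicates per age. No treatment, deletion or transgene is named for any group, and the study's methods describe male animals fed ad libitum. The hour of the day at which each liver was taken is not given in the sources used here. Genes of this kind are known for following the time of day in liver, and age and hour of collection cannot be told apart in these data.

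In the mammalian clock, CLOCK and BMAL1 (the product of Arntl) bind E-box sequences and drive their own repressors, the PER and CRY proteins. DBP, TEF and HLF are bZIP transcription factors of the PAR family (proline and acidic amino acid-rich), which bind a sequence called the D-box and activate genes of xenobiotic metabolism and of the clock itself. NFIL3, also called E4BP4, binds the same D-box as a repressor and is known to peak when DBP is low. BHLHE40, BHLHE41 and CIART repress transcription driven by CLOCK and BMAL1, USP2 removes ubiquitin from proteins of the clock, and RORA activates Arntl and Nfil3 through ROR elements, which the NR1D proteins occupy as repressors.

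The sequences below are the clock motifs found just upstream of transcription starts of these genes, shown because E-boxes, D-boxes and ROR elements are the sites through which the factors act on each other. Windows of 250 bases before to 50 bases after each start were taken from RefSeq (build GRCm38.p6), which held 9 windows for 8 of the 9 genes and none for Bhlhe40. Both strands were searched for CACGTG (E-box), TTANGNAA (D-box) and TAGGTCA (ROR element), with N for any base, and none of the matches printed here overlapped another. Of 32851 windows of the same length for all genes, 7.15% held the E-box, 11.5% the D-box and 2.61% the ROR element. The printed windows hold 30 bases on the gene's strand, written 5′ to 3′, with the motif in capitals and its first base counted back from the start.
Ciart, E-box at 116 bases, chr3:95882327-95882356, minus strand: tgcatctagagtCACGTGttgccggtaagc
Ciart, E-boxes at 58 and 44 bases, chr3:95882262-95882291, minus strand: ggaggCACGTGcagaaccgCACGTGtctgg
Bhlhe41, E-box at 153 bases, chr6:145865556-145865585, minus strand: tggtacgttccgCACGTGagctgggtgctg
Tef, first start, E-box at 127 bases, chr15:81802534-81802563, plus strand: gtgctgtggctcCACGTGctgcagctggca
Tef, second start, E-box at 138 bases, chr15:81811264-81811293, plus strand: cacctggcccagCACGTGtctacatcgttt
Nfil3, ROR element at 12 bases, chr13:52981040-52981069, minus strand: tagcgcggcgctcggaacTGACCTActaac
Per3, D-box at 205 bases, chr4:151044852-151044881, minus strand: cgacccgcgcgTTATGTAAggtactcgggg
Per3, D-box at 158 bases, chr4:151044805-151044834, minus strand: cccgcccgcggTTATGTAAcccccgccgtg
E-boxes were thus found for 3 of the 8 genes with a window, Ciart, Bhlhe41 and Tef, and the ROR element for Nfil3, where TGACCTA is TAGGTCA read from the other strand. No D-box was found in the windows of these genes, and Per3, the gene of a PER protein, is shown for its pair of D-boxes. The windows of Dbp, Hlf, Usp2 and Rora held none of the 3 motifs, which says only that these letters are not in those stretches. For Hlf and Usp2 the bases just after the start were found in no GENCODE M21 transcript of the gene, so the place of these 2 windows is less certain. All 30 printed bases of Nfil3 (in Nfil3 itself) and of the first start of Tef (in Tef and Gm17597) lie in exons annotated in GENCODE M21. Of the Bhlhe41 bases 3 do, at the edge of its first exon and outside the E-box, and the other 5 windows lie outside annotated exons.

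Libraries held between 8124312 and 10527159 gene counts. Young replicate 2 stood apart, with 19.2% of its counts from mitochondrial genes against 5.48% to 10.7% in the other 11 livers, and with the highest share of synthetic spike-in RNA (10.6%). The relative amounts of 31 well-counted spike-ins split the livers of every age into replicates 1 and 2 and replicates 3 and 4 (Pearson's r of at least 0.997 within these sets and at most 0.925 between them). What the sets stand for is not given in the sources used here. Fold changes within each are printed beside the pooled ones wherever a clock output gene or a list gene passed between 2 ages. Young replicate 3 (22284 genes with a count) and middle-aged replicate 1 (19982) also stood apart, against 16361 to 17563 genes in the other 10 livers. All 6 hepatocyte markers examined were counted in every liver, and 0 passed the test between any ages. In bulk tissue, fewer cells of a type and less RNA per cell cannot be told apart. Of the markers of Kupffer cells, sinusoidal endothelium, stellate cells and T and B cells, 0 passed. Of 5 cholangiocyte markers, Sox9 alone was called, higher in aged livers (log2-fold change 0.86 against young and 0.95 against middle-aged livers), while the summed level of the list was 28.2 to 35.9, 13.0 to 48.4 and 24.1 to 46.5 CPM in young, middle-aged and aged livers. Among red blood cell markers, 2 of 3 passed the test in aged against young livers (Hbb-bs, -1.67, and Alas2, -0.60), with a summed level of 1779 to 5480 CPM in young, 1056 to 3985 CPM in middle-aged and 788.8 to 1686 CPM in aged livers. These 3 markers were singled out after their values were seen, and their part in the results below was not tested.

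The middle-aged livers stood apart for Dbp, Tef and Nfil3. With DESeq2 (Wald test, FDR < 0.05 over all genes tested), Dbp, Tef and Bhlhe40 were higher and Nfil3 was lower in middle-aged than in young livers, so that 4 of the 8 genes tested passed, against 6.41% of all 11333 genes tested. By direction, 3.51% of all genes tested were called higher and 2.9% lower. From middle-aged to aged livers, Dbp, Tef, Bhlhe41 and Usp2 were lower and Nfil3 was higher, 5 of 8 against 1.14% of all 10236 genes tested, of which 0.537% were higher and 0.606% lower. Between aged and young livers only Usp2 passed, 1 of 9 and lower with age, against 3.58% of all 13527 genes tested, with 1.87% higher and 1.71% lower. Over the 3 ages together, the likelihood ratio test called 6 of 9 (Dbp, Tef, Nfil3, Bhlhe41, Ciart and Usp2), against 6.96% of all genes tested. Each pair of these comparisons shares the 4 livers of one age, so their values are not independent.

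The median log2-fold change of the 9 genes was 0.78 in middle-aged against young livers and -1.27 in aged against middle-aged livers. In aged against young livers it was -0.36. These medians include Ciart, which had no adjusted p in the first 2 comparisons. The medians of all tested genes, in the same order, were 0.0065, 0.005 and -0.0003. The values of the 4 livers of each age did not overlap for 4 of the 9 genes in the first of these comparisons (Dbp, Tef, Hlf and Nfil3), against 16% of all genes tested. In the second they did not overlap for 6 (Dbp, Tef, Nfil3, Bhlhe41, Ciart and Usp2), against 6.55%, and in the third for 2 (Ciart and Usp2), against 7.53%. The edgeR quasi-likelihood test called 3, 4 and 0 of the genes in these comparisons and 5 over the 3 ages. Of all 12099 genes it tested, it called 280, 13 and 172 in these comparisons and 234 over the 3 ages. Where edgeR called 0, 4 of the 9 had an unadjusted p under 0.05 in DESeq2. The share of all genes under that level was not computed, so this count is a description only.

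**Figure D1:**
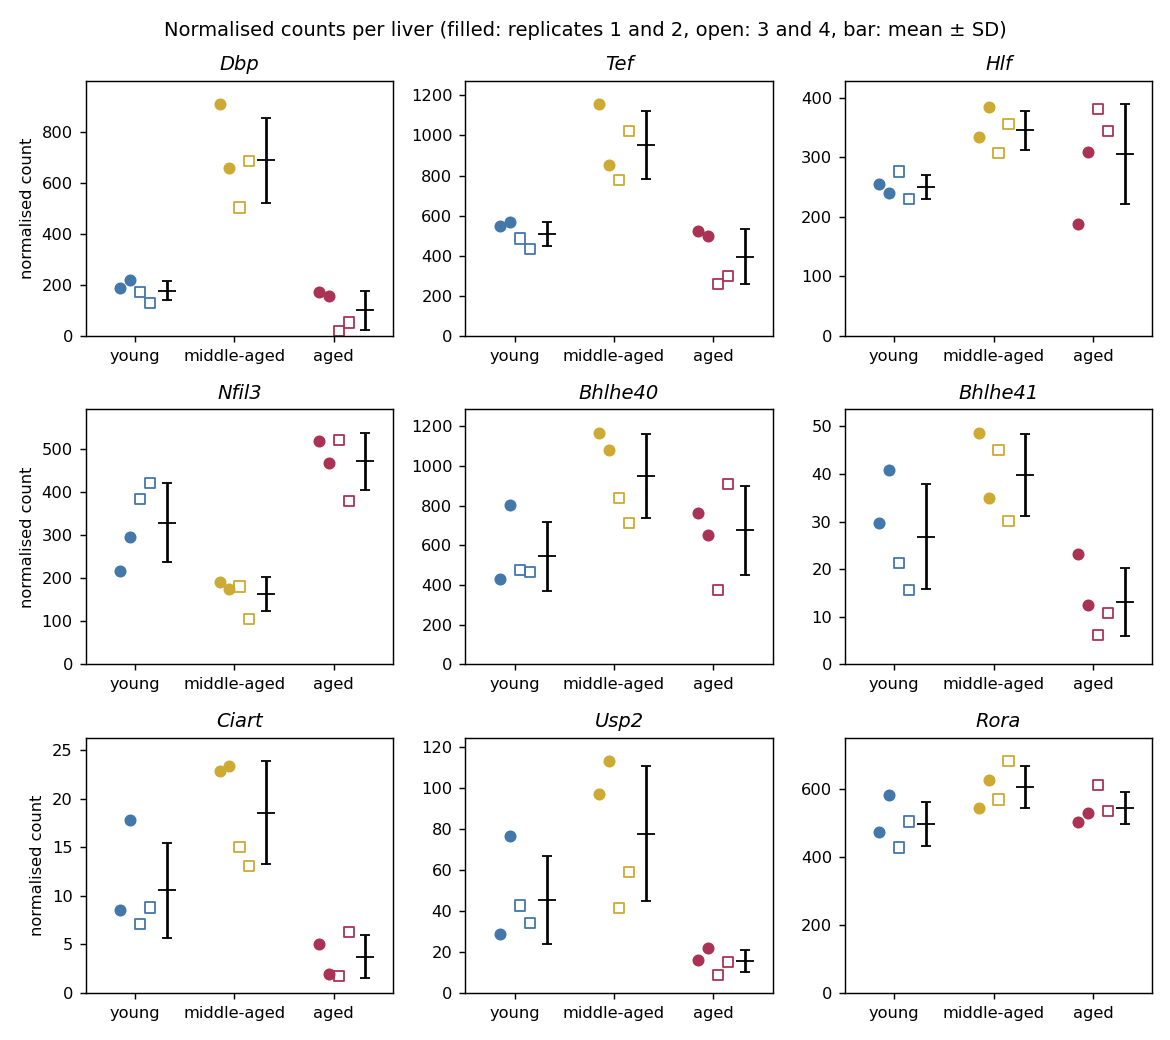
Normalised counts (DESeq2 size factors; linear axis from 0) of the 9 clock output genes in each liver by age, with filled circles for replicates 1 and 2, open squares for replicates 3 and 4, and a black bar for the mean ± SD of 4 livers. Dbp and Tef lay highest and Nfil3 lowest in all 4 middle-aged livers, while Rora spanned 428 to 682 over all 12 livers.

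Dbp (ENSMUSG00000059824, chr7:45705088-45710203, plus strand, GRCm38) encodes the PAR bZIP activator whose mRNA is known for its wide swing over the day in liver. Its normalised counts were 188, 220, 173 and 130 in young replicates 1 to 4, 908, 657, 503 and 686 in middle-aged ones and 173, 157, 18.4 and 52.7 in aged ones. Every middle-aged liver lay above every young and every aged liver, while young and aged livers overlapped, with aged replicates 1 and 2 inside the young range and aged replicates 3 and 4 below it. Dbp was 3.88-fold higher in middle-aged than in young livers (DESeq2 log2-fold change 1.96 ± 0.56 SE, adjusted p = 0.0143). From middle-aged to aged livers it was 6.88-fold lower (DESeq2 log2-fold change -2.78 ± 0.56 SE, adjusted p = 0.000355).

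Dbp was lower in aged replicates 3 and 4 than in aged replicates 1 and 2, a difference between spike-in sets that was not tested. Its log2-fold change in aged against young livers was -0.83 ± 0.56 SE in the pooled fit (DESeq2 adjusted p = 0.515), and -0.30 within replicates 1 and 2 (adjusted p = 0.9999) against -2.09 within replicates 3 and 4 (DESeq2 adjusted p = 4.09e-07). In aged against middle-aged livers it was -2.25 within replicates 1 and 2 and -4.06 within replicates 3 and 4, both called. The rise in middle age was similar in both sets, with log2-fold changes of 1.94 and 1.97, but its call was lost without young replicate 3 (DESeq2 adjusted p = 0.0611), young replicate 4 (0.0591) or middle-aged replicate 1 (0.0609). The first and the last of these are the 2 libraries with the most genes detected, and the part of that in the result was not tested. Reads from Sphk2, which lies on the opposite strand and shares 18.0% of the exonic bases of Dbp, could add to these counts, since the strand setting of the counting is not given in the sources used here.

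Tef (ENSMUSG00000022389, chr15:81802421-81826863, plus strand), the second PAR bZIP gene and the one with an E-box before both of its RefSeq starts, had the same order of ages with smaller steps. The young livers held 548, 567, 486 and 435 normalised counts, the middle-aged ones 1156, 853, 780 and 1023, and the aged ones 523, 501, 259 and 299. As for Dbp, all middle-aged livers were above all others, and aged replicates 3 and 4 were the lowest of the 12. Tef was 1.87-fold higher in middle-aged than in young livers (DESeq2 log2-fold change 0.91 ± 0.21 SE, adjusted p = 0.0018). It was 2.41-fold lower in aged than in middle-aged livers (DESeq2 log2-fold change -1.27 ± 0.21 SE, adjusted p = 5.77e-06). Both steps were called within replicates 1 and 2 (0.85 and -0.97), within replicates 3 and 4 (0.96 and -1.68) and without each single liver. The log2-fold change in aged against young livers was -0.36 ± 0.22 SE (DESeq2 adjusted p = 0.427), with -0.12 within replicates 1 and 2 and -0.72 within replicates 3 and 4 (DESeq2 adjusted p = 0.00961 in the latter).

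Hlf (ENSMUSG00000003949, chr11:90336536-90390895, minus strand), the third PAR bZIP gene, passed no test in the main fit of all 12 livers. Its normalised counts were 256, 239, 276 and 230 in young livers, 335, 384, 307 and 356 in middle-aged livers and 188, 308, 381 and 344 in aged livers. The 4 middle-aged livers lay above the 4 young ones, whereas the aged livers overlapped both. The log2-fold change was 0.46 ± 0.18 SE in middle-aged against young livers (DESeq2 adjusted p = 0.104) and -0.18 ± 0.18 SE in aged against middle-aged livers (DESeq2 adjusted p = 0.864). Between aged and young livers it was 0.29 ± 0.19 SE (DESeq2 adjusted p = 0.485). Within replicates 1 and 2 these values were 0.54, -0.53 and 0.007, and within replicates 3 and 4 they were 0.38, 0.14 and 0.52, none of them called. Aged replicate 1 held the lowest value of the 12, and without it Hlf was called higher in aged than in young livers (0.46, DESeq2 adjusted p = 0.00612) and in middle-aged than in young livers (0.47, DESeq2 adjusted p = 0.00269). With only young and middle-aged livers fitted, Hlf was also called higher in the latter (0.46, DESeq2 adjusted p = 0.00351).

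Nfil3 (ENSMUSG00000056749, chr13:52967209-52981073, minus strand), the repressor that competes with the PAR factors for the D-box, ran the other way. Its normalised counts were 216, 296, 384 and 421 in young livers, 192, 175, 181 and 105 in middle-aged livers and 518, 467, 522 and 379 in aged livers. All middle-aged livers lay below all others, and the aged livers overlapped the young ones only through aged replicate 4. Nfil3 was 2.02-fold lower in middle-aged than in young livers (DESeq2 log2-fold change -1.01 ± 0.22 SE, adjusted p = 0.000691). Aged livers held 2.89-fold more of it than middle-aged ones (DESeq2 log2-fold change 1.53 ± 0.22 SE, adjusted p = 1.65e-08), with 1.43 and 1.66 within the spike-in sets, both called.

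The step of Nfil3 from young to middle age had one sign but different sizes in the spike-in sets, a difference that was not tested. It was -0.48 within replicates 1 and 2 (DESeq2 adjusted p = 0.602) and -1.50 within replicates 3 and 4 (DESeq2 adjusted p = 4.25e-06). Nfil3 was not called between aged and young livers (DESeq2 log2-fold change 0.52 ± 0.22 SE, adjusted p = 0.186), with 0.95 within replicates 1 and 2 (DESeq2 adjusted p = 0.0142) and 0.16 within replicates 3 and 4 (DESeq2 adjusted p = 0.948).

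**Figure D2:**
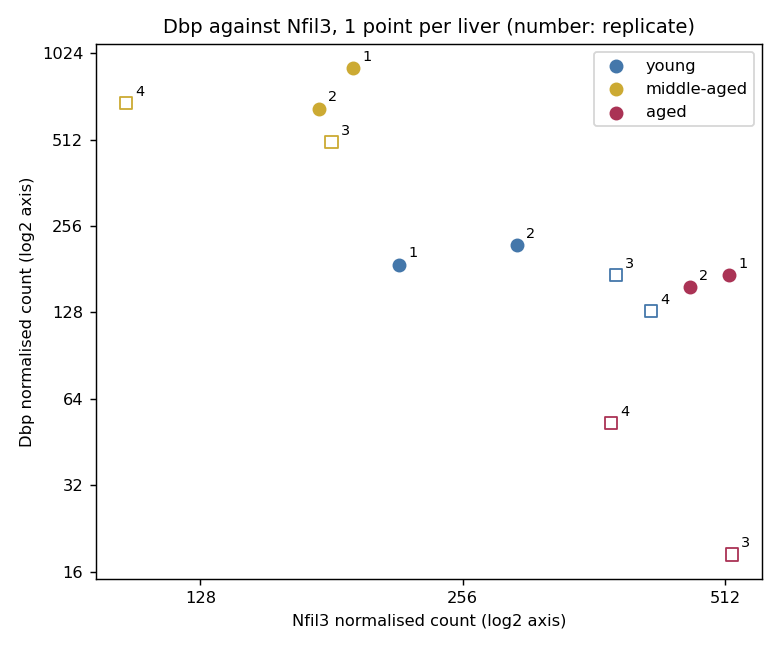
Normalised count of Dbp against that of Nfil3, both on log2 axes, with 1 point per liver numbered by replicate, filled circles for replicates 1 and 2, open squares for replicates 3 and 4. The 4 middle-aged livers lie at the upper left, above 500 counts of Dbp and below 200 of Nfil3, and the aged livers lie at the right, spread from 18.4 to 173 counts of Dbp at 379 to 522 counts of Nfil3.

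Levels of different genes were compared as normalised counts per kilobase of exon. The summed level of the PAR activators Dbp, Tef and Hlf was 162 ± 20.7 per kb in young livers, 403 ± 77.4 in middle-aged livers and 129 ± 32.7 in aged livers (SD, n = 4 each). Divided by the Nfil3 level per kb of the same liver, it gave 0.641 to 1.60 in young, 3.51 to 7.95 in middle-aged and 0.373 to 0.704 in aged livers. By this measure the activator sum exceeded the Nfil3 level in every middle-aged liver and in young replicates 1 and 2, and lay below it in the other 6. The lengths count all annotated exons of a gene, which need not all be in its mRNA. Ratios near 1, such as 1.24 and 0.849 in young replicates 2 and 3, may depend on that choice. Dbp made up 53.7% to 60.6% of the PAR sum in middle-aged livers, 32.6% to 40.6% in young livers and 6.38% to 37.9% in aged livers, the lowest share being that of aged replicate 3. These ratios are given as descriptions, with no test, since the single genes were tested above.

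Among the repressors of CLOCK and BMAL1, Bhlhe40 (ENSMUSG00000030103, chr6:108660629-108666925, plus strand) was the most abundant per kb of exon. Its normalised counts were 431, 805, 475 and 465 in young livers, 1167, 1078, 840 and 713 in middle-aged livers and 761, 654, 377 and 910 in aged livers. Young replicate 2, the library with the high mitochondrial share, held the highest young value and lay inside the middle-aged range, and the other 3 young livers lay below every middle-aged one. Bhlhe40 was 1.75-fold higher in middle-aged than in young livers (DESeq2 log2-fold change 0.80 ± 0.26 SE, adjusted p = 0.0381). The call was narrow. It was lost in edgeR (adjusted p = 0.109) and when any one of young replicates 1, 3 and 4 or middle-aged replicates 1, 2 and 3 was left out (DESeq2 adjusted p between 0.0621 and 0.118). It was held within replicates 1 and 2 (log2-fold change 0.87) but not within replicates 3 and 4 (0.71, DESeq2 adjusted p = 0.575). Its aged livers passed in neither comparison, with log2-fold changes of 0.31 ± 0.26 SE against young and -0.49 ± 0.26 SE against middle-aged livers.

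Bhlhe41 (ENSMUSG00000030256, chr6:145858243-145865558, minus strand), the paralogue of Bhlhe40, was far lower, at 3.95 normalised counts per kb over all livers against 153.6 for Bhlhe40. Normalised counts of Bhlhe41 were 29.7, 40.8, 21.3 and 15.6 in young livers, 48.65, 35.01, 45.03 and 30.07 in middle-aged livers and 23.1, 12.5, 6.1 and 10.7 in aged livers. All aged livers lay below all middle-aged ones, and young livers overlapped both. Bhlhe41 was 3.06-fold lower in aged than in middle-aged livers (DESeq2 log2-fold change -1.61 ± 0.41 SE, adjusted p = 0.0154). The log2-fold change kept its sign within replicates 1 and 2 (-1.23) and within replicates 3 and 4 (-2.15) but passed in neither. The call was lost in edgeR (adjusted p = 0.15) and without middle-aged replicate 1 or 3 or aged replicate 2 or 4 (DESeq2 adjusted p from 0.0601 to 0.126). Bhlhe41 had no adjusted p without young replicate 3, middle-aged replicate 2 or aged replicate 3. Nor had it one with a minimum of 10 counts in 4 livers. Against young livers the aged ones gave -1.04 ± 0.42 SE (DESeq2 adjusted p = 0.161), and the call was made without aged replicate 1 (-1.45, DESeq2 adjusted p = 0.0164). Middle-aged against young livers gave 0.57 ± 0.39 SE (DESeq2 adjusted p = 0.4065). Gm43909, on the opposite strand, shares 19.0% of the exonic bases of Bhlhe41.

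Ciart (ENSMUSG00000038550, chr3:95878503-95882251, minus strand), whose promoter window carries the 3 E-boxes printed above, had the lowest counts of the set. It reached 8.5, 17.8, 7.1 and 8.8 normalised counts in young livers, 22.84, 23.34, 15.01 and 13.03 in middle-aged livers and 5.0, 1.9, 1.7 and 6.3 in aged livers. All aged livers lay below all young and all middle-aged ones, and young replicate 2 alone among young livers lay inside the middle-aged range. The likelihood ratio test over the 3 ages called Ciart (DESeq2 adjusted p = 0.00442, edgeR adjusted p = 0.0425), but not within replicates 1 and 2 (0.414) or within replicates 3 and 4 (0.905), and without aged replicate 3 the filter on low means left it untested. In aged against middle-aged livers the log2-fold change was -2.32 ± 0.56 SE, but DESeq2's filter on low means left the gene without an adjusted p. Without that filter the DESeq2 adjusted p was 0.02. Of 9 refits that gave an adjusted p for this step, 6 called it. The edgeR test did not (adjusted p = 0.0843), nor did the fit within replicates 3 and 4 (DESeq2 adjusted p = 0.921). In aged against young livers the log2-fold change was -1.49 ± 0.58 SE (DESeq2 adjusted p = 0.142). In middle-aged against young livers, again left out by the filter, it was 0.83 ± 0.49 SE. In the order of these 3 comparisons the values were -2.74, -1.92 and 0.82 within replicates 1 and 2 and -1.81, -0.998 and 0.81 within replicates 3 and 4. At these depths 3 counts correspond to between 0.285 and 0.369 CPM, so that the lowest aged values rest on very few reads.

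Usp2 (ENSMUSG00000032010, chr9:44067021-44095627, plus strand), the ubiquitin-specific protease, was the gene that passed in aged against young livers. Its normalised counts were 28.7, 76.4, 42.7 and 34.2 in young livers, 97.3, 113, 41.5 and 59.1 in middle-aged livers and 16.1, 22.2, 8.7 and 15.2 in aged livers. The 4 aged livers lay below the 8 others, and the young and middle-aged livers overlapped. Usp2 was 2.92-fold lower in aged than in young livers (DESeq2 log2-fold change -1.55 ± 0.43 SE, adjusted p = 0.0146). It was 5.02-fold lower in aged than in middle-aged livers (DESeq2 log2-fold change -2.33 ± 0.42 SE, adjusted p = 2.76e-05), with -2.46 and -2.06 within the spike-in sets, both called. Without middle-aged replicate 2 or aged replicate 3 that comparison gave Usp2 no adjusted p.

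The decrease of Usp2 against young livers kept its size within replicates 1 and 2 (-1.44) and within replicates 3 and 4 (-1.68), but passed in neither. The call was lost without young replicate 2 (-1.18, DESeq2 adjusted p = 0.146), without aged replicate 3 (-1.35, DESeq2 adjusted p = 0.094) and in edgeR (adjusted p = 0.082). Young replicate 2 was the highest young liver for 7 of the 9 genes, all but Hlf and Nfil3. In middle-aged against young livers Usp2 gave 0.78 ± 0.39 SE (DESeq2 adjusted p = 0.224). Hbb-bs and Alas2 were lower in the same aged livers.

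Rora (ENSMUSG00000032238, chr9:68653786-69388246, plus strand), the nuclear receptor that acts through ROR elements, varied least. Its normalised counts were 474, 581, 428 and 504 in young livers, 544, 627, 569 and 682 in middle-aged livers and 503, 529, 611 and 536 in aged livers, and the 3 ranges overlapped. The log2-fold change was 0.29 ± 0.12 SE in middle-aged against young livers (DESeq2 adjusted p = 0.115), -0.15 ± 0.11 SE in aged against middle-aged livers (DESeq2 adjusted p = 0.776) and 0.13 ± 0.12 SE in aged against young livers (DESeq2 adjusted p = 0.641). Within replicates 1 and 2 they were 0.15, -0.18 and -0.027, and within replicates 3 and 4 they were 0.41, -0.12 and 0.29, none of them called.

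**Figure D3:**
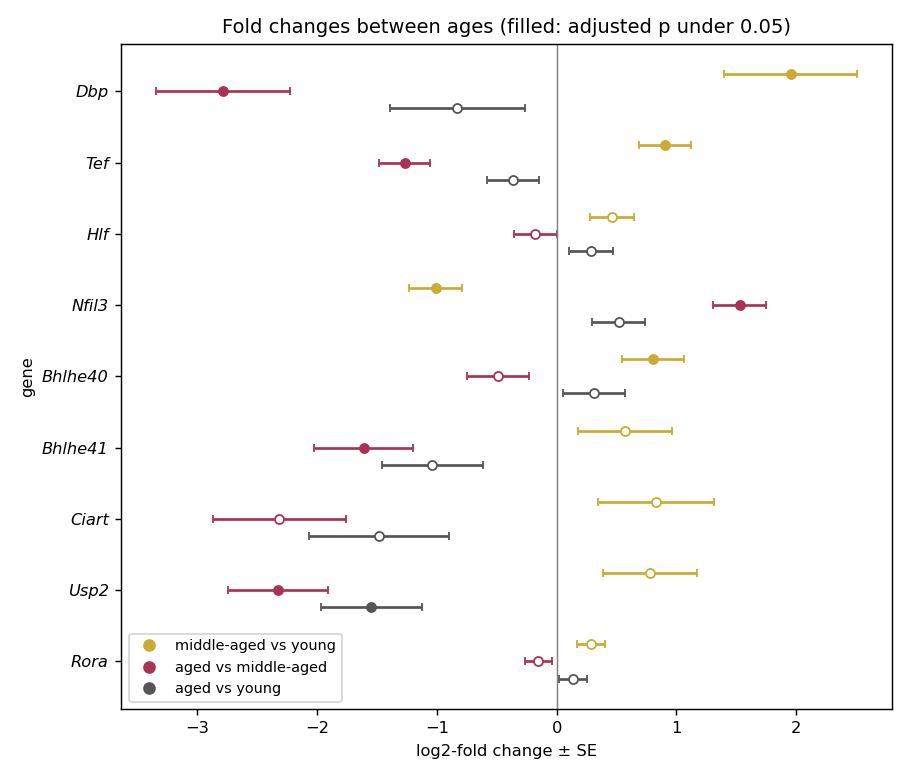
Log2-fold changes ± SE (DESeq2) of the 9 genes in the 3 comparisons of ages, with filled points where the adjusted p was under 0.05 and open ones where it was not or where none was given (Ciart in 2 comparisons). Dbp, Tef and Nfil3 are filled in both steps through middle age, on opposite sides of 0 for Nfil3 and the PAR genes, and Usp2 is the only filled point in aged against young livers.

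Livers of one age also differed from each other in Dbp and Bhlhe40 more than in most genes. The SD of log2(normalised count + 1) after subtracting each age mean was 0.903 for Dbp, which placed it at percentile 98.9 of the 8888 genes that averaged 50 or more normalised counts, whose median SD was 0.19. Bhlhe40 stood at percentile 94.1, Nfil3 at 89.9, Tef at 88.9, Hlf at 79.6 and Rora at 30.2 (SD 0.152). Bhlhe41, Ciart and Usp2, which averaged less than that and whose counting noise is larger, had SDs of 0.563, 0.566 and 0.595.

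The genes whose within-age deviations most resembled those of Dbp were Pa2g4, Acat3, Eif2b5, Dohh and Tef, with Pearson's r from 0.954 down to 0.938 over 12 livers. Of these, Tef also had a high r over the 12 values without the age means subtracted (0.982), while the other 4 had 0.158 to 0.369. For Tef they were Dbp, Glyat, Nfix, Slc9a3r1 and Cct7 (0.938 to 0.921 within ages, 0.205 to 0.982 without subtraction). For Nfil3 they were Rrp15, Scamp2, Mief2, Ppp1r3c and Sesn2 (0.926 to 0.877, and 0.392 to 0.754). For Bhlhe41 they were Hsd17b2, Arap1, Serpina1a, Ftcd and AI182371 (0.969 to 0.936, and 0.213 to 0.677). The points share size factors and spike-in sets, and are too few to rank so many genes: with TMM size factors, 3, 4, 5 and 3 of the 5 genes stayed for Dbp, Tef, Nfil3 and Bhlhe41.

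The core loop, which drives these outputs, was followed with a list of 13 genes. Beside its counts stand the shares called over all genes tested. These were 6.41% in middle-aged against young, 1.14% in aged against middle-aged and 3.58% in aged against young livers. In middle-aged against young livers 3 of 13 were higher and 0 lower: Per3 (log2-fold change 1.51 ± 0.34 SE), Cry2 (0.59 ± 0.17 SE) and Nr1d2 (0.66 ± 0.19 SE). Within replicates 1 and 2 and within replicates 3 and 4 they gave 1.43 and 1.60 for Per3, 0.61 and 0.57 for Cry2, and 0.46 and 0.89 for Nr1d2. The count fell to 1 without young replicate 4 or middle-aged replicate 1, 2 or 4. From middle-aged to aged livers Arntl (1.56 ± 0.39 SE) and Cry1 (1.15 ± 0.26 SE) were higher and Per3 (-2.31 ± 0.36 SE), Cry2 (-0.62 ± 0.17 SE) and Nr1d2 (-1.05 ± 0.19 SE) were lower, 5 of 12 tested. This count rests on few livers: it was 1 without aged replicate 3 and 3 without middle-aged replicate 2 or 4 or aged replicate 4. Per3 alone was called in both spike-in sets (-2.11 and -2.57). The other 4 were called within replicates 3 and 4 (Arntl 1.85, Cry1 1.54, Cry2 -0.88, Nr1d2 -1.39) and not within replicates 1 and 2 (1.11, 0.64, -0.38 and -0.76). In aged against young livers 1 of 13 passed, Cry1 (0.91 ± 0.26 SE), with 0.59 within replicates 1 and 2 and 1.12 within replicates 3 and 4, called in neither. The count was 0 without young replicate 1 or 2 or aged replicate 3 or 4 and with only those 2 ages fitted, 2 without middle-aged replicate 1 or aged replicate 2, and 3 without aged replicate 1. The medians of the list were 0.03, 0.03 and -0.02. The edgeR test called 1, 2 and 0 of these genes, against 280, 13 and 172 of all 12099 genes it tested. Per3 was among these calls in both steps. In aged against young livers 7 of 13 had an unadjusted p under 0.05 in DESeq2, a count given without its share over all genes. Per3, Nr1d2 and Cry2 had the order of ages of Dbp and Tef, with middle-aged livers highest. Arntl and Cry1 were highest in aged livers, as Nfil3 was. Genes that did not pass varied in this. Per2 and Nr1d1 also had their highest mean in middle-aged livers. Per1 had its highest mean in young livers (112.6 normalised counts, against 59.9 in middle-aged and 52 in aged livers).

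**Figure D4:**
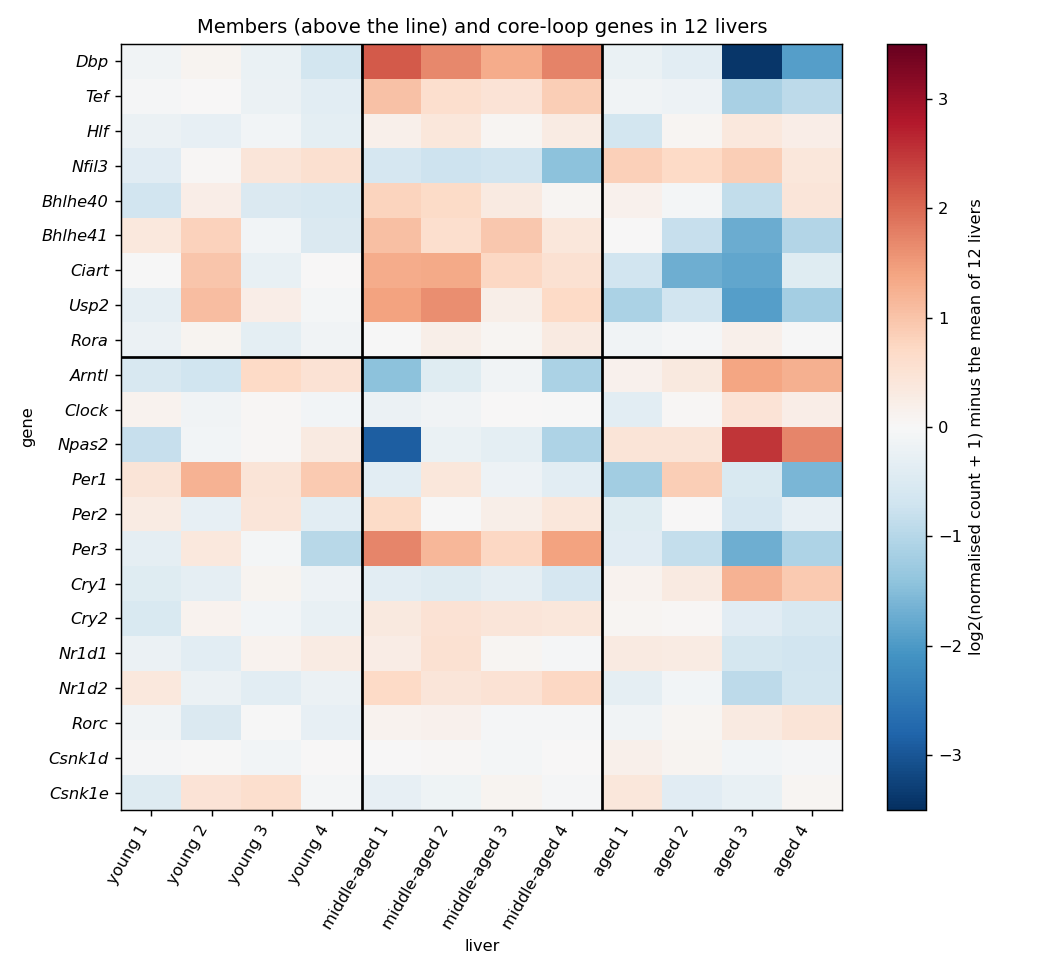
Colour map of log2(normalised count + 1) minus the mean of the 12 livers, with 1 row per gene (the 9 clock output genes above the line, the 13 core-loop genes below it) and 1 column per liver, in order of age. Dbp is above its mean in all middle-aged livers (1.30 to 2.15) and lowest in aged replicate 3 (-3.41), where Npas2 is at its highest.

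Genes described as driven by the PAR factors in liver were followed with a list of 10, of which 9 were tested, Cyp2a4 having almost no counts. Of all genes tested, 6.41% were called in middle-aged against young, 1.14% in aged against middle-aged and 3.58% in aged against young livers. In middle-aged against young livers Por, the electron donor of cytochrome P450 enzymes (0.67 ± 0.18 SE), and Ppara, the receptor for fatty acids (0.76 ± 0.25 SE), were higher and 0 lower. Both were called within replicates 1 and 2 (0.94 and 1.07) and not within replicates 3 and 4 (0.33 and 0.50). The count fell from 2 to 0 without middle-aged replicate 2, and to 1 without young replicate 1, 2 or 3 or middle-aged replicate 1, 3 or 4. Por was lower again in aged than in middle-aged livers (DESeq2 log2-fold change -0.93 ± 0.18 SE, adjusted p = 9.46e-05), the only call of that comparison, with -1.07 and -0.73 within the spike-in sets, both called. Without aged replicate 1 or 2 the count rose to 2. In aged against young livers Cyp2b10, a xenobiotic-metabolising cytochrome P450, was the only call and was higher (2.46 ± 0.65 SE, DESeq2 adjusted p = 0.0101). Normalised counts of Cyp2b10 were 10.6, 10.2, 7.1 and 9.8 in young livers, 40.7, 29.6, 22.1 and 17.04 in middle-aged livers and 12.04, 12.5, 123 and 59 in aged livers. Aged replicates 3 and 4 were thus far above the other 2: the log2-fold change was 0.24 within replicates 1 and 2 (DESeq2 adjusted p = 0.9999) and 3.42 within replicates 3 and 4 (DESeq2 adjusted p = 1.73e-05). Without aged replicate 3 the list had 0 calls, and without young replicate 4, middle-aged replicate 1 or 2 or aged replicate 1 it had 2. The medians of the list were 0.60, -0.36 and -0.04. The edgeR test called 0 of these genes in each of the 3 comparisons, against 280, 13 and 172 of all 12099 genes it tested. DESeq2 gave 3, 6 and 5 of the list an unadjusted p under 0.05, again without a share over all genes beside them. Cyp2a, Cyp2b and Cyp2c genes have near-identical copies that share reads, so their single values are uncertain. D-boxes were found in the promoter windows of 3 of the 9 genes of this list with a window, Cyp2a4, Cyp2a5 and Cyp2b10. Cyp2a5 gave 0.54 ± 0.33 SE from young to middle age and -0.82 ± 0.33 SE from there to aged livers, and passed in neither step. It is named for its D-box. Within replicates 1 and 2 it gave 1.1 (DESeq2 adjusted p = 0.00421) and -0.81 in these steps, and within replicates 3 and 4 it gave -0.05 and -0.81 (DESeq2 adjusted p = 0.000748 for the latter).

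**Figure D5:**
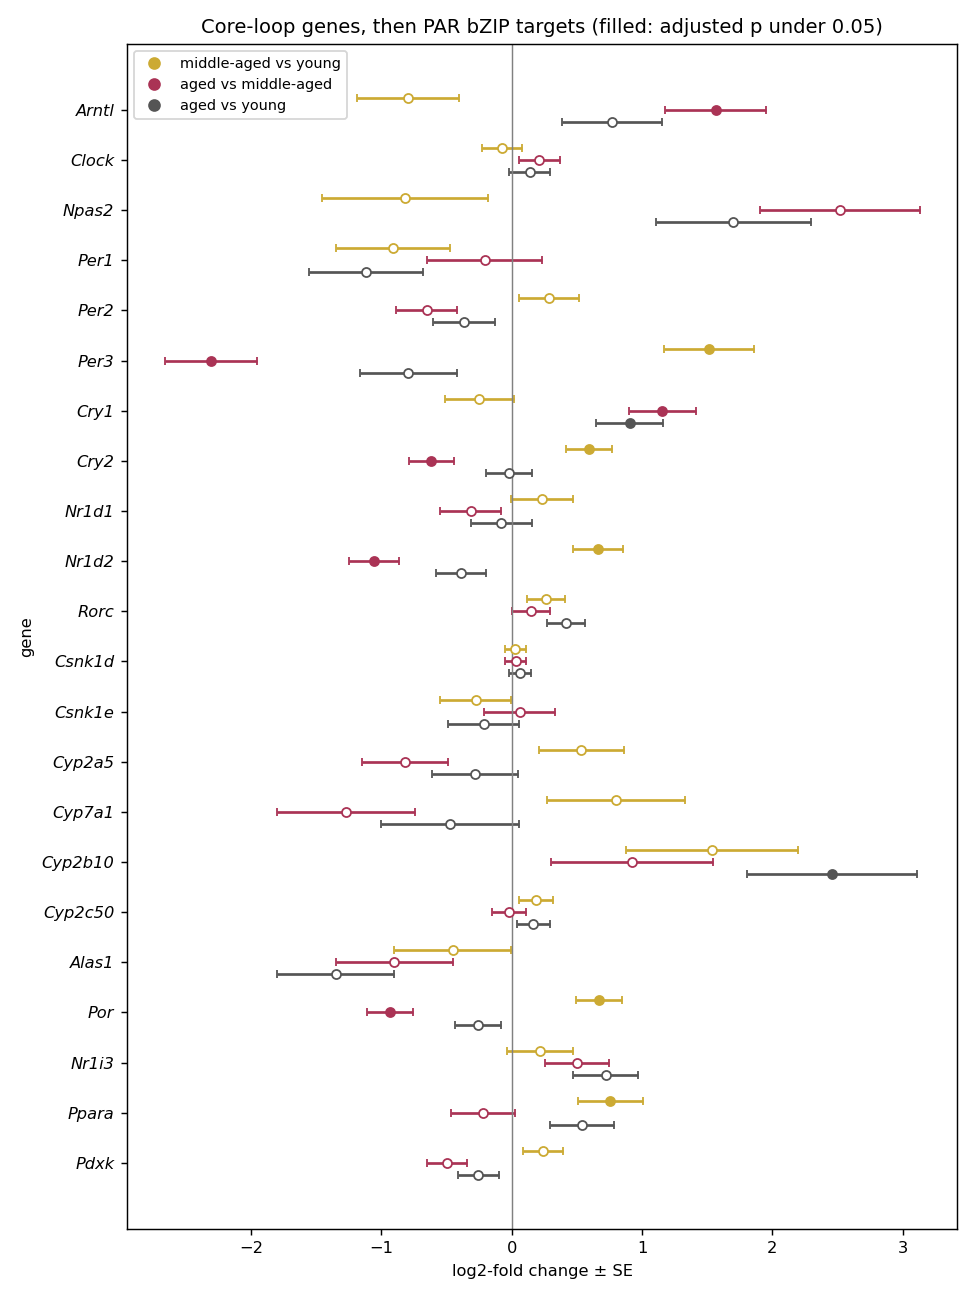
Log2-fold changes ± SE (DESeq2) in the 3 comparisons of ages for the 13 core-loop genes (Arntl to Csnk1e) and 9 of the 10 listed PAR bZIP targets (Cyp2a5 to Pdxk), with filled points where the adjusted p was under 0.05 and open ones where it was not or where none was given (Npas2 in aged against middle-aged livers). Per3 has the largest called step down from middle-aged to aged livers (-2.31) and Cyp2b10 the largest called difference between aged and young livers (2.46).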

How the data were processed

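The authors deposited 1 table of raw read counts per gene (Ensembl identifiers) for the 12 livers, with no normalisation. The submitters' processing notes name STAR 2.5.2b, SAMtools 1.9, featureCounts and builds mm10 and GRCm38, with a directional library kit. The strand setting and annotation of the counting are not given in the sources used here. The labels describe RNA isolation for young and old livers only, so how the middle-aged ones were prepared is uncertain. Ages and replicate numbers came from the labels.

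All 12 columns were used, and 92 spike-in rows were left out of library sizes and tests. Symbols, positions and exonic lengths came from GENCODE M21, which held 53360 of 53465 identifiers. DESeq2 1.42.0 in R 4.3.3 fitted all 12 livers with age as the only term (Wald tests between ages, a likelihood ratio test over 3 ages, Benjamini-Hochberg adjusted p under 0.05, default independent filtering). DESeq2 with only age as a term follows the study's stated tool. edgeR 4.0.16 (quasi-likelihood test) was run as an alternative, as were a minimum of 10 counts in 4 livers, TMM factors, no independent filtering, 2-age fits, a replicate block, spike-in sets and leaving out each liver. A filtering level of 0.05 was added after seeing the data. Likeness between genes used log2(normalised count + 1) with a pseudocount of 1.

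The 9 genes and the lists of core-loop genes, PAR bZIP targets and cell markers were chosen with earlier results of these data known. A gene of the core-loop list is not reported here. All 9 genes were named whatever their values, and list genes where they passed in any pair of ages. Cyp2a5, Npas2, Per1, Per2 and Nr1d1 were named after their values or motifs were seen. The 5 most alike genes were taken for 4 of them. Replicates are separate animals, and each p-value sets a difference between ages against the spread of these 12 livers within their ages. Replicate numbers did not pair livers (r of same-numbered deviations -0.302 to 0.159). Scripts were tested on simulated counts with known changes.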

Additional observations from a re-analysis of the deposited data

Results flagged for a closer look

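Young replicate 2 was far from the other young livers for 2 of the 9 genes. It held 804.9 normalised counts of Bhlhe40 against 431 to 475.1 in the other 3 young livers, and 17.83 of Ciart against 7.109 to 8.786. Of 27 groups examined (9 genes at 3 ages), 2 stood out in this way, where chance gives about 1 in 20 groups, or 1.35 of 27. The same library had the highest mitochondrial share (19.2%) and spike-in share (10.6%), and the part of these in the 2 values was not tested.

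The spike-in rows, which entered no test of genes and served only to sort the livers into sets, carried signal in every liver, with 1.589% of all counts in the lowest and 10.63% in the highest.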

How the results depend on the processing

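Refits of single fold changes of the 9 genes were counted where they gave an adjusted p. Of these 553, 513 kept their direction and their side of the threshold, 25 lost a call, 13 gained one and 2 reversed. The refits left out were all of Bhlhe41, Ciart or Usp2. Of the 13 gains, 6 were Ciart in aged against middle-aged livers, which the main fit left without an adjusted p. The reversals were small and not called: Rora in aged against young livers within replicates 1 and 2 (-0.027), and Hlf in aged against middle-aged livers within replicates 3 and 4 (0.14). Of the 9 genes, aged against young livers gave 1 call, but 0 in edgeR and 2 within replicates 3 and 4 (Dbp and Tef), and 0 to 3 when single livers were left out (0 without young replicate 2 or aged replicate 3, 3 without aged replicate 1). The 4 calls of middle-aged against young livers became 2 to 5 (2 without young replicate 3 or 4 or middle-aged replicate 1), and the 5 of aged against middle-aged livers 3 to 6 (3 without middle-aged replicate 2 or aged replicate 3, where the filter on low means left Bhlhe41 and Usp2 untested). The 6 calls over the 3 ages became 3 within replicates 3 and 4.

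Replicate numbers did not pair the livers (1 of 12 correlated best with its own number). With a replicate block the calls among the 9 genes were 1, 4, 6 and 6 in aged against young, middle-aged against young, aged against middle-aged and all 3 ages, where the block dropped Ciart (adjusted p = 0.0525) and gained Bhlhe40. Over all genes, in the same order, the calls were 484, 727, 117 and 865, with the block 655, 385, 426 and 451, in edgeR 172, 280, 13 and 234 and without independent filtering 321, 443, 62 and 611. With only the ages compared, aged against young gave 290 and middle-aged against young 1166. The cause was not tested. For low genes such as Ciart, depth limits the precision.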
